A study of Mus musculus with 20 samples.

Results

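The TIF1 family, chosen with earlier results of these data known, holds 3 genes taken by name. These are Trim24 (TIF1α), Trim28 (TIF1β or Kap1) and Trim33 (TIF1γ). They are 3 of the 13107 genes counted in the first experiment and 3 of the 11210 counted in the second. The question put to the data was whether Trim24 and Trim28 change when Trim33 is lost, and whether Myc or replication stress moves any member. Trim24 mRNA was higher in all of the Trim33-KO groups than in their Trim33-WT groups, by 1.28-fold to 2.53-fold. Trim28 mRNA was higher by 1.23-fold and 1.35-fold in the Trim33-KO1 and Trim33-KO2 lines with the control vector. It did not pass the test with the Myc vector, at log2 differences of 0.04 and -0.05, or in untreated cells of the second experiment. After hydroxyurea it was higher by 1.33-fold, a call that was lost without any 1 of the libraries compared. Trim33 mRNA was lower in the knockouts with the control vector and in the second experiment. With the Myc vector it was higher in the libraries labelled Trim33-KO1 than in those labelled Trim33-WT, unlike with the control vector. In Trim33-KO2 with the Myc vector it was lower and did not pass the test.

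TIF1 proteins are chromatin regulators of the TRIM class. Each carries a RING finger, B-boxes and a coiled coil at the amino terminus and a PHD finger with a bromodomain at the carboxy terminus. Trim24 and Trim33 read histone tails through the latter domains. Trim24 is a coregulator of retinoic acid receptors and a ubiquitin ligase for p53. Trim28 is brought to DNA by KRAB zinc finger proteins and assembles the histone methyltransferase Setdb1, HP1 proteins and the NuRD complex into a silencing machinery. Trim33 binds Smad proteins, ubiquitinates Smad4 and takes part in the DNA damage response. The members form complexes with each other, and loss of Trim24 or Trim33 in mouse hepatocytes is known to favour liver tumors.

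All libraries are RNA-seq of p19/Nras cells, a murine liver cancer line from a tumor driven by Nras in p19/Arf-null mice, so that every library shares both changes. In the Myc experiment, cells with a control guide (Trim33-WT) and the lines Trim33-KO1 and Trim33-KO2, made by CRISPR with a guide against Trim33, carried a pWZL control vector (Ctrl) or a vector for Myc. These are 6 groups of 2 libraries. In the HU experiment, Trim33-WT and Trim33-KO cells were untreated or given hydroxyurea (HU), which blocks ribonucleotide reductase, at 1 mM for 4 hours. These are 4 groups of 2 libraries. The sources used here do not say which knockout line entered the HU experiment or whether a line is 1 clone, and a guide and its line cannot be told apart. The labels do not state that paired libraries came from separate cultures, so that p-values measure only the spread between these libraries, which may be technical.

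Libraries of the Myc experiment held 14753177 to 17949430 counts, and those of the HU experiment 2315327 to 3082202. Trim24 was read 1136 to 2001 times per library in the first and 104 to 460 times in the second, Trim28 4251 to 7191 and 556 to 977 times, and Trim33 1855 to 3776 and 125 to 447 times. Levels are given as CPM, the counts scaled to library size by TMM, and differences as log2 fold changes with their standard error (SE) from edgeR's quasi-likelihood test. A gene was called at an adjusted p below 0.01 for knockout and Myc comparisons and below 0.05 for HU comparisons. Of 9 hepatocyte markers Afp alone was listed in the Myc experiment, and Afp with Apob for the HU libraries, whereas Krt8, Krt18, Krt19 and Sox9, of 7 epithelial and biliary markers, were listed in both. Summed CPM of the listed epithelial markers was 4340 and 4494 in Trim33-WT Ctrl, 3234 and 3274 in Trim33-KO1 Ctrl and 3489 and 3549 in Trim33-KO2 Ctrl. In untreated cells the sum was 2194 and 2498 in Trim33-WT and 2686 and 3112 in Trim33-KO. It was therefore lower in the knockout lines of the first experiment and higher in the knockout of the second. Afp stood at 30.2 and 33.0 CPM in Trim33-WT Ctrl, at 0.798 and 0.920 in Trim33-KO1 Ctrl and at 8.13 and 8.56 in Trim33-KO2 Ctrl. The summed mesenchymal markers, 6 of 7 listed, stood at 6291 and 6460 CPM in Trim33-WT Ctrl, at 8301 and 8468 in Trim33-KO1 Ctrl and at 4991 and 5213 in Trim33-KO2 Ctrl, higher in one line and lower in the other. In untreated cells Afp and Apob summed to 13.5 and 23.1 CPM in Trim33-WT and to 26.1 and 28.5 in Trim33-KO, and the mesenchymal markers to 3318 and 3513 and to 3578 and 3901, both higher in the knockout. The part of these markers in the results below was not tested. Of 6 leukocyte markers only Cd68 was listed, at 0.790 to 6.30 CPM. In bulk RNA, fewer cells of a type and less RNA per cell cannot be told apart.

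In the mm9 build that the reads were aligned to, Trim24 lies on chr6:37820811-37916296, Trim28 on chr7:13609501-13616384 and Trim33 on chr3:103083216-103162691, all on the plus strand. Their annotated exons cover 8537, 4044 and 8868 bases, and no other annotated gene overlaps any of them. The 250 bases before an annotated start of Trim24 and before that of Trim28 are shown because both mRNAs moved with the knockout and Trim28 also with Myc. They are RefSeq sequences of GRCm38.p6, plus strand, at chr6:37870561-37870810 and chr7:13023902-13024151, in lower case with a match to an E2F word in capitals.
Trim24: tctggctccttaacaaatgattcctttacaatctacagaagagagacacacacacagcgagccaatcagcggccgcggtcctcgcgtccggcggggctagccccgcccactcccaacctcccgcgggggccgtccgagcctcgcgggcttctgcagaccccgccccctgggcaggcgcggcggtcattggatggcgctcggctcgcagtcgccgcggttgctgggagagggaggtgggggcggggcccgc
Trim28: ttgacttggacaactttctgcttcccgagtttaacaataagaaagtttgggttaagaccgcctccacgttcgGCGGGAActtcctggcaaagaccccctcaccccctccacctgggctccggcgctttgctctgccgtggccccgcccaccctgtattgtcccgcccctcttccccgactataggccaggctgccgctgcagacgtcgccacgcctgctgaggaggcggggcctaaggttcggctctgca
Both strands were searched for the E2F word GCGGGAA (reverse TTCCCGC) and the E-box CACGTG that Myc binds. The upstream stretch of Trim28 holds the E2F word once, from 178 to 172 bases before the start, and no E-box. The stretch of Trim24 shown holds neither word. A further upstream stretch of Trim24, at chr6:37900237-37900486, was searched but is not shown. It holds neither word, and no GC box or CCAAT box as defined below. Of 32851 mouse upstream stretches of that length, 3.82% hold the E2F word and 6.02% the E-box, so that these matches are a description of the letters only. GC boxes (GGGCGG or CCGCCC) stand in both stretches shown, as they do in 32.7% of all. A CCAAT box (CCAAT or ATTGG) stands in the stretch of Trim24 shown and in 33.8% of all. The upstream stretch of Trim33 was not analysed here.

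The targeted gene was examined first. With the Ctrl vector, Trim33 stood at 246 and 258 CPM in Trim33-WT, at 123 and 130 CPM in Trim33-KO1 and at 201 and 207 CPM in Trim33-KO2. The libraries of both knockout lines lay below those of Trim33-WT, and those of Trim33-KO1 lay lowest. Trim33 fell by 0.99 on the log2 scale in Trim33-KO1 (SE 0.0692, edgeR adjusted p = 3.5e-09), a level of 0.504 of that in Trim33-WT, and 26.7% of the 13107 genes were called lower in that comparison. It fell by 0.31 in Trim33-KO2 (SE 0.0676, edgeR adjusted p = 0.000966), a level of 0.809, and 26.6% of genes were called lower there. That call was lost with library totals alone (adjusted p = 0.0115) and without Trim33-WT Ctrl replicate 2 (-0.27, adjusted p = 0.0171) or Trim33-KO2 Ctrl replicate 1 (-0.28, adjusted p = 0.0146). Trim33 in Trim33-KO2 was higher than in Trim33-KO1 by 0.68 on the log2 scale (SE 0.0693, edgeR adjusted p = 1.41e-06), and 18.3% of genes were called between the lines. A count sums reads over the whole gene and does not show the edited position.

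In the HU experiment Trim33 was at 140 and 125 CPM in untreated Trim33-WT and at 50.8 and 43.8 CPM in untreated Trim33-KO. After HU it was at 142 and 139 CPM in Trim33-WT and at 50.9 and 52.2 CPM in Trim33-KO. All 4 knockout libraries lay below all 4 Trim33-WT libraries. Trim33 fell by 1.49 on the log2 scale in untreated cells (SE 0.157, edgeR adjusted p = 3.48e-11) and by 1.45 after HU (SE 0.153, edgeR adjusted p = 2.94e-11), to levels of 0.356 and 0.366. In untreated cells 2.52% of the 11210 genes were called lower, and after HU 6.04% were called in either direction.

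With the Myc vector, Trim33 mRNA did not follow the labels of Trim33-WT and Trim33-KO1. The labels give a genotype, and counts of mRNA do not measure protein. The paper states that CRISPR was used to abolish Trim33 expression and shows an immunoblot of the lines. Trim33 mRNA was at 131 and 155 CPM in the libraries labelled Trim33-WT Myc. Those labelled Trim33-KO1 Myc stood at 185 and 193 CPM and those labelled Trim33-KO2 Myc at 124 and 125 CPM. The libraries labelled Trim33-KO1 Myc were thus the highest of the Myc vector, and those labelled Trim33-WT Myc lay between the knockout lines. The log2 difference from the libraries labelled Trim33-WT Myc was 0.40 for Trim33-KO1 (SE 0.0686, edgeR adjusted p = 0.000243), in a comparison with 25.1% of genes called. For Trim33-KO2 it was -0.20 (SE 0.0695, edgeR adjusted p = 0.0263), which did not pass, in a comparison with 35.2% of genes called. Without the library labelled Trim33-WT Myc replicate 1 it was -0.31 and passed (edgeR adjusted p = 0.000162). The libraries labelled Trim33-WT Myc differed most between replicates, with a squared difference per gene of 11.1 times counting noise, against 2.21 to 4.52 in the other groups of that experiment. Comparisons that use the libraries labelled with the Myc vector are therefore given apart. The orders of group means, the shares of the family and the genes most alike below use all libraries of that experiment. Each knockout line was also compared with Trim33-WT with only the 6 Ctrl libraries in the fit. Every member then kept its direction and its call. The call for Trim33-KO1 under the Myc vector was lost with the compared groups alone in the fit (adjusted p = 0.0108).

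**Figure D1:**
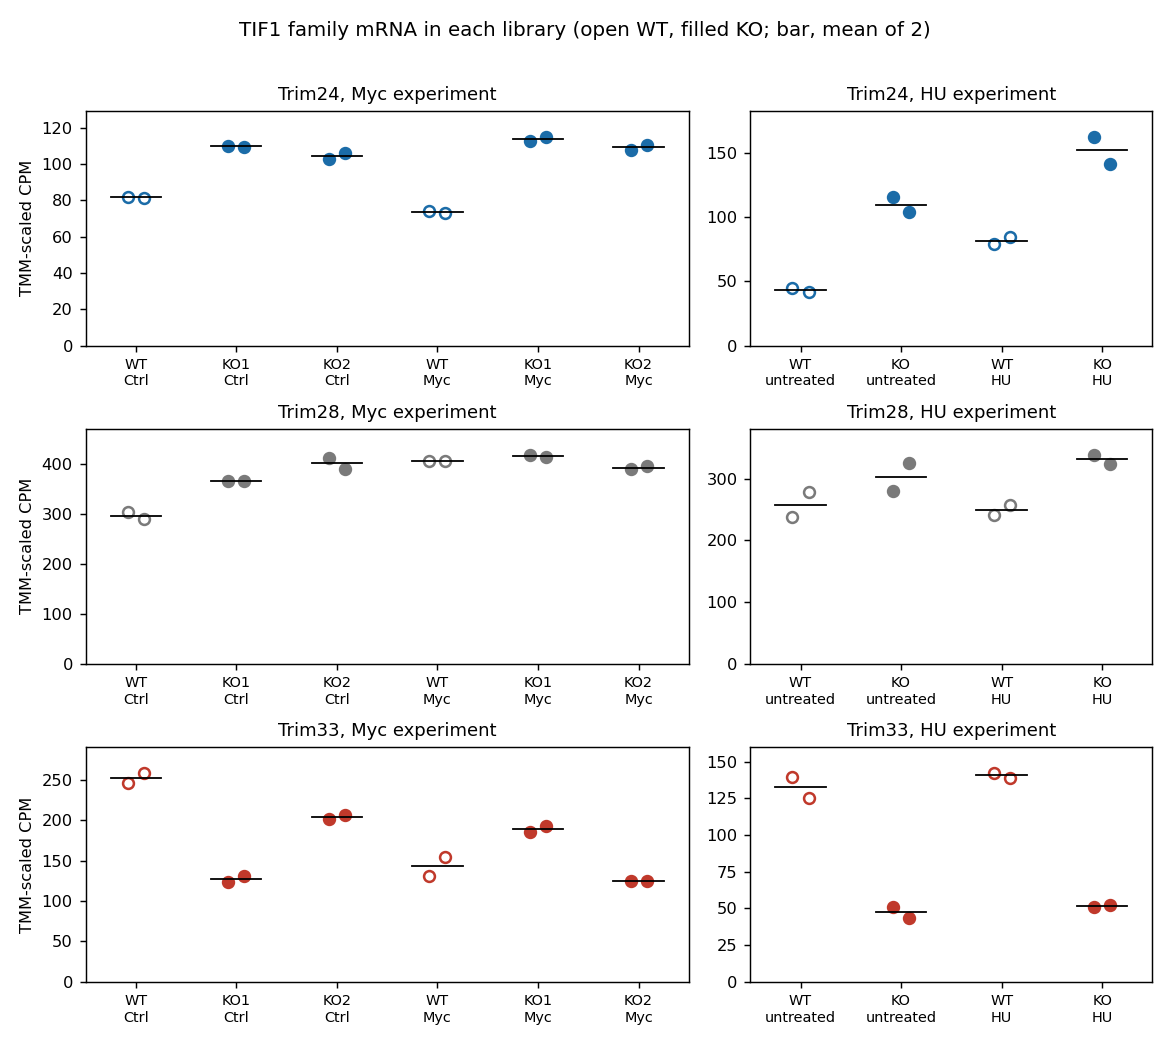
TMM-scaled CPM (vertical axes, from 0) of each member in each of the 20 libraries, by group along the horizontal axes; open points are Trim33-WT, filled points Trim33-KO, and bars the mean of 2 libraries. Trim24 is higher in every knockout library than in the Trim33-WT libraries of the same vector or treatment, whereas Trim33 in the libraries labelled Trim33-KO1 Myc lies above that in the libraries labelled Trim33-WT Myc.

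Trim24, the retinoid receptor coregulator, was at 81.6 and 81.4 CPM in Trim33-WT Ctrl, at 110.0 and 109 CPM in Trim33-KO1 Ctrl and at 103 and 106 CPM in Trim33-KO2 Ctrl. Both knockout lines lay above Trim33-WT without overlap. Trim24 rose by 0.43 on the log2 scale in Trim33-KO1 (SE 0.0543, edgeR adjusted p = 3.9e-06), or 1.34-fold, and by 0.36 in Trim33-KO2 (SE 0.0544, edgeR adjusted p = 3.13e-05), or 1.28-fold. In these comparisons 25.5% and 23.3% of genes were called higher. In size, 46.3% of genes differed more than Trim24 in Trim33-KO1 and 52.3% in Trim33-KO2. The lines did not differ past the threshold, with a log2 difference of -0.07 (95% interval -0.18 to 0.04, edgeR adjusted p = 0.343), although their Trim33 levels did.

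Without vectors, in the HU experiment, Trim24 was at 44.5 and 42.1 CPM in untreated Trim33-WT and at 115 and 104 CPM in untreated Trim33-KO. The groups stood far apart, and the knockout level was 2.53-fold that of Trim33-WT. Trim24 rose by 1.34 on the log2 scale (SE 0.161, edgeR adjusted p = 2.27e-09), in a comparison with 3.07% of genes called higher. Only 3.88% of the genes tested differed more. After HU it was at 78.9 and 84.8 CPM in Trim33-WT and at 163 and 142 CPM in Trim33-KO, and it rose by 0.90 in the knockout (SE 0.143, edgeR adjusted p = 4.13e-06), or 1.86-fold.

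Trim24 was also higher in the knockout lines with the Myc vector, where Trim33 mRNA was not lower in Trim33-KO1. It was at 73.9 and 72.9 CPM in the libraries labelled Trim33-WT Myc, at 113 and 115 CPM in those labelled Trim33-KO1 Myc and at 108 and 111 CPM in those labelled Trim33-KO2 Myc. The groups of the knockout lines lay above those of Trim33-WT. The log2 differences were 0.63 (SE 0.0539, edgeR adjusted p = 1.94e-07) and 0.57 (SE 0.0539, edgeR adjusted p = 2.89e-07), or 1.55-fold and 1.49-fold. Trim24 thereby followed the Trim33-WT and Trim33-KO labels with both vectors, unlike Trim33 mRNA.

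Trim28, the corepressor of KRAB zinc finger proteins, was at 303 and 291 CPM in Trim33-WT Ctrl, at 367 and 367 CPM in Trim33-KO1 Ctrl and at 413 and 390 CPM in Trim33-KO2 Ctrl. The knockout lines again lay above Trim33-WT. Trim28 rose by 0.30 on the log2 scale in Trim33-KO1 (SE 0.0509, edgeR adjusted p = 6.73e-05), or 1.23-fold, and by 0.44 in Trim33-KO2 (SE 0.0508, edgeR adjusted p = 1.64e-06), or 1.35-fold. Of all genes, 25.5% and 23.3% were called higher in these comparisons. In size, 58.3% of genes differed more than Trim28 in Trim33-KO1 and 44.3% in Trim33-KO2. The difference between the lines was 0.13 (SE 0.0505, edgeR adjusted p = 0.0619), which did not pass with all 12 libraries in the fit and did with the compared groups or the Ctrl libraries alone.

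In untreated cells of the HU experiment Trim28 was at 238 and 278 CPM in Trim33-WT and at 281 and 326 CPM in Trim33-KO. The groups did not overlap, but the gap between them was small beside the spread within each. The log2 difference was 0.23 (95% interval 0.008 to 0.46, edgeR adjusted p = 0.185), which did not pass. After HU Trim28 was at 242 and 257 CPM in Trim33-WT and at 339 and 324 CPM in Trim33-KO, and the log2 difference was 0.41 (SE 0.112, edgeR adjusted p = 0.00895), or 1.33-fold. That call was lost with DESeq2 (adjusted p = 0.02133), with library totals alone, and without any 1 of the 4 libraries compared (0.37 to 0.45, adjusted p from 0.052 to 0.173).

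**Figure D2:**
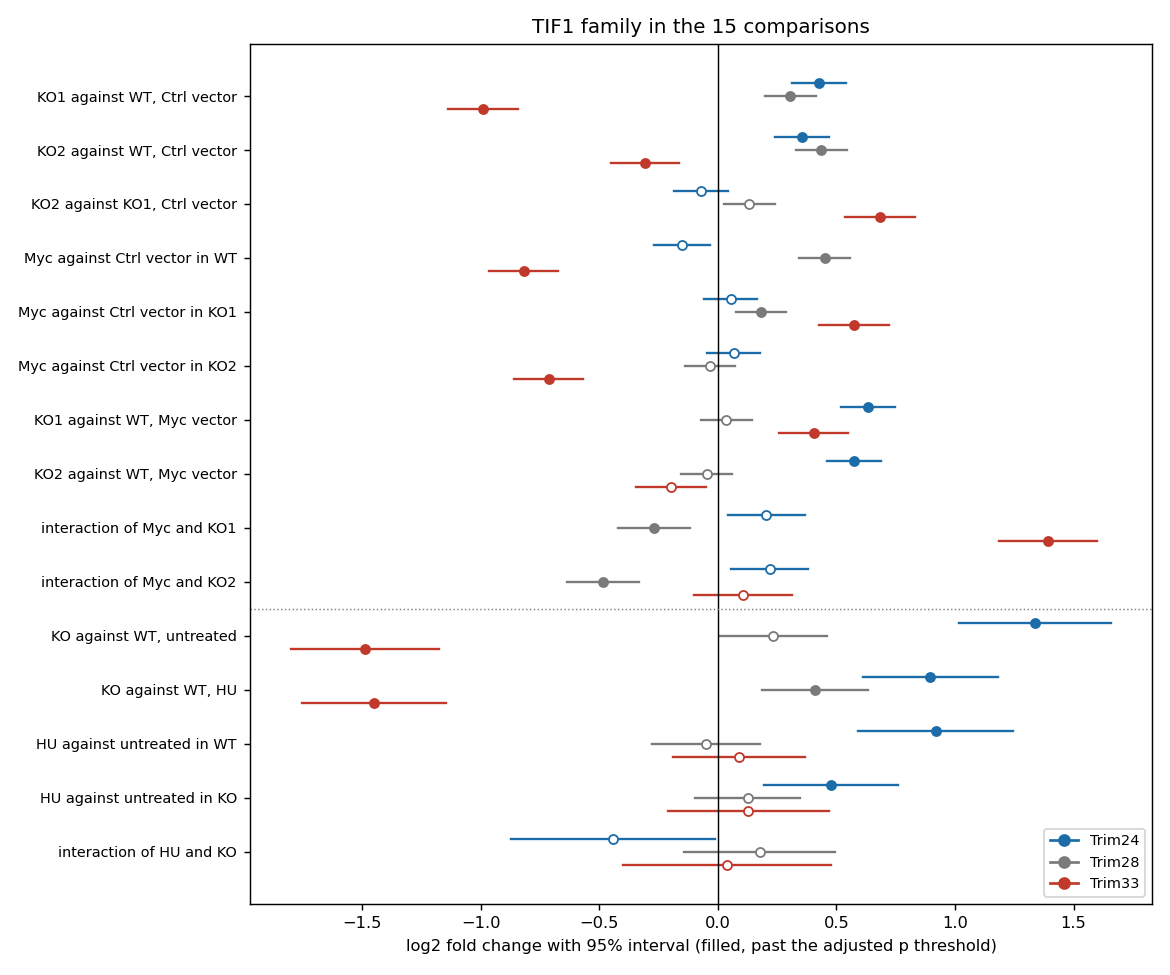
Log2 fold changes (horizontal axis) of the members with their 95% intervals in the 15 comparisons (vertical axis), with the HU experiment below the dotted line; filled points passed the adjusted p threshold. Trim24 lies to the right of 0 in all 4 comparisons of a knockout with Trim33-WT that do not use the Myc vector, and Trim33 to the left.

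Ordered by their group means (± SD, n = 2), Trim24 ran in the Myc experiment from 73.4 ± 0.714 CPM in the libraries labelled Trim33-WT Myc and 81.5 ± 0.134 in Trim33-WT Ctrl to 104 ± 2.19 in Trim33-KO2 Ctrl, 109 ± 1.91 in the libraries labelled Trim33-KO2 Myc, 110 ± 0.566 in Trim33-KO1 Ctrl and 114 ± 1.49 in those labelled Trim33-KO1 Myc. The only neighbours in this order whose libraries overlapped were Trim33-KO2 Myc and Trim33-KO1 Ctrl. For the HU groups the order was 43.3 ± 1.73 in untreated Trim33-WT, 81.9 ± 4.20 in Trim33-WT after HU, 110 ± 8.20 in untreated Trim33-KO and 152 ± 14.6 in Trim33-KO after HU, with no overlap.

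Trim28 was lowest in Trim33-WT Ctrl, at 297 ± 8.91 CPM, and next in Trim33-KO1 Ctrl, at 367 ± 0.354. The libraries labelled Trim33-KO2 Myc (393 ± 4.67), Trim33-KO2 Ctrl (402 ± 16.1) and those labelled Trim33-WT Myc (406 ± 0.354) overlapped with the next in order, and those labelled Trim33-KO1 Myc (416 ± 2.76) lay above them. In the HU experiment the libraries of Trim33-WT after HU (250 ± 10.8) and untreated Trim33-WT (258 ± 28.3) overlapped, as did those of untreated Trim33-KO (303 ± 32.5) and Trim33-KO after HU (331 ± 10.0). Trim33 was at 124 ± 0.424 in the libraries labelled Trim33-KO2 Myc and at 127 ± 4.95 in Trim33-KO1 Ctrl, which overlapped, then at 143 ± 17.0 in those labelled Trim33-WT Myc, 189 ± 5.02 in those labelled Trim33-KO1 Myc, 204 ± 4.17 in Trim33-KO2 Ctrl and 252 ± 8.84 in Trim33-WT Ctrl. Among the HU groups it was at 47.3 ± 4.99 in untreated Trim33-KO and 51.5 ± 0.891 in Trim33-KO after HU, and at 132 ± 10.2 and 141 ± 2.12 in Trim33-WT, where untreated and HU libraries overlapped.

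Over the 3 comparisons of untreated or Ctrl cells, which come from 2 experiments, Trim24 was called higher in each and Trim33 lower in each. Of the 11161 genes in both tables, 62 (0.556%) were called higher in all 3 comparisons and 53 (0.475%) lower in all 3. The Trim33-KO1 and Trim33-KO2 comparisons share their Trim33-WT Ctrl libraries.

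The make-up of the family was compared per kilobase of exon, the scale on which levels of different genes can be set side by side. Trim28 was the most abundant member in every library and made up 65.0% to 82.5% of the summed CPM per kilobase. Trim33 came second in Trim33-WT, at 24.7% and 26.3% of the sum with the Ctrl vector and at 19.7% and 16.1% in untreated cells. Trim24 held 8.52% and 8.63% there with the Ctrl vector, and 6.53% and 5.61% in untreated cells. In untreated Trim33-KO the order of these members was turned round, with Trim24 at 15.3% and 12.4% and Trim33 at 6.47% and 5.05%. The ratio of Trim24 to Trim33, both per kilobase, was 0.345 and 0.328 in Trim33-WT Ctrl and 0.331 and 0.349 in untreated Trim33-WT, so that the experiments started from like ratios. It was 0.926 and 0.870 in Trim33-KO1 Ctrl, 0.531 and 0.531 in Trim33-KO2 Ctrl and 2.36 and 2.47 in untreated Trim33-KO. Trim33 remained above Trim24 per kilobase in both lines with the Ctrl vector and stood below it in the knockout of the HU experiment. The summed level of the family was 112 and 110 CPM per kilobase in Trim33-WT Ctrl, 118 and 118 in Trim33-KO1 Ctrl and 137 and 132 in Trim33-KO2 Ctrl. In untreated cells it was 79.9 and 87.8 in Trim33-WT and 88.6 and 97.8 in Trim33-KO. These sums were not tested.

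**Figure D3:**
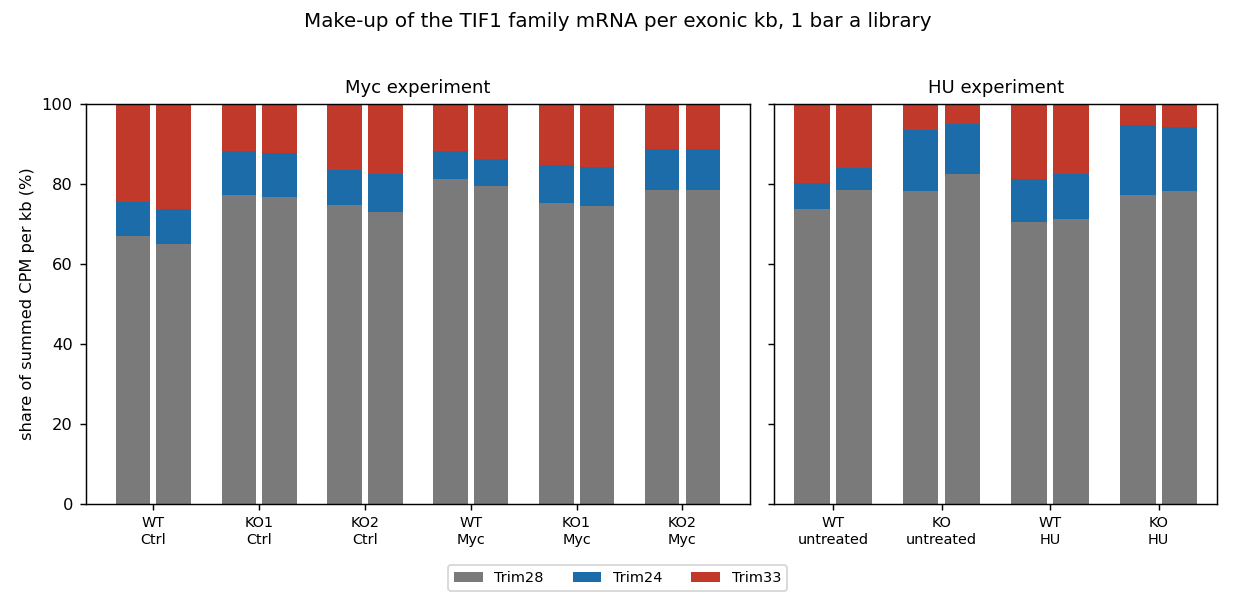
Share (vertical axis, in percent) of each member in the summed CPM per kilobase of exon of the family, with 1 bar a library, grouped by cells and vector or treatment along the horizontal axis. Trim28 takes at least 65.0% in each library, and the part held by Trim33 is smallest, 5.05% to 6.47%, in the knockout libraries of the HU experiment.

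The effect of the Myc vector on the members was then examined within each line. Counts of Myc itself stood at 433 and 439 CPM in Trim33-WT Ctrl and at 456 and 458 CPM in the libraries labelled Trim33-WT Myc. They went from 186 and 196 CPM to 621 and 646 CPM under the Trim33-KO1 labels, and from 210 and 218 CPM to 459 and 499 CPM under the Trim33-KO2 labels. The libraries labelled Trim33-WT thus lay close together with both vectors, and both interactions below are taken against them, whereas the knockout lines lay far apart. The part of Myc mRNA in the results below was not tested. In the libraries labelled Trim33-WT, Trim28 was at 303 and 291 CPM with the Ctrl vector and at 406 and 406 CPM with Myc, a log2 difference of 0.45 (SE 0.0508, edgeR adjusted p = 1.82e-06) in a comparison with 44.3% of genes called. In those labelled Trim33-KO1 Trim28 was at 418 and 414 CPM with Myc, a log2 difference of 0.18 (SE 0.0504, edgeR adjusted p = 0.00687), with 36.1% of genes called, and the call was lost with DESeq2 and without any 1 of the 4 libraries compared (0.18 to 0.20, adjusted p from 0.0258 to 0.0463). In those labelled Trim33-KO2 it was at 390 and 396 CPM with Myc, and the log2 difference was -0.03 (95% interval -0.14 to 0.07, edgeR adjusted p = 0.621), with 38.8% of genes called. With the Myc vector, Trim28 thus stood between 390 and 418 CPM in all 6 libraries. Its log2 differences from the libraries labelled Trim33-WT Myc were 0.04 (95% interval -0.07 to 0.14) for Trim33-KO1 and -0.05 (95% interval -0.15 to 0.06) for Trim33-KO2, and neither passed.

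The interaction of Myc with the knockout, which tests whether the Myc effect differed between lines, was called for Trim28 in both lines. It was -0.27 for Trim33-KO1 (SE 0.0715, edgeR adjusted p = 0.00525) and -0.48 for Trim33-KO2 (SE 0.0715, edgeR adjusted p = 4.45e-05), where 37.3% and 32.8% of genes were called. Both interactions share the Trim33-WT libraries. Without 1 library at a time, the first was -0.30 to -0.24 and missed the threshold in 5 of 8 fits, those without Trim33-WT Ctrl replicate 2 or any library labelled Trim33-KO1, and the second missed it in none. For Trim24 the Myc effect was -0.15 in the libraries labelled Trim33-WT (edgeR adjusted p = 0.0281), 0.05 in those labelled Trim33-KO1 and 0.07 in those labelled Trim33-KO2, and none passed. Its interactions, 0.21 (edgeR adjusted p = 0.035) and 0.22 (edgeR adjusted p = 0.0287), did not pass either.

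Trim33 moved more with the Myc vector than the other members, and in unlike directions. It fell by 0.82 on the log2 scale in the libraries labelled Trim33-WT (SE 0.0686, edgeR adjusted p = 6.98e-08), rose by 0.57 in those labelled Trim33-KO1 (SE 0.0693, edgeR adjusted p = 4.44e-06) and fell by 0.71 in those labelled Trim33-KO2 (SE 0.069, edgeR adjusted p = 3.87e-07). The interaction was 1.39 for Trim33-KO1 (SE 0.0974, edgeR adjusted p = 1.12e-08). For Trim33-KO2 it was 0.11 (95% interval -0.10 to 0.31, edgeR adjusted p = 0.396). These directions rest on Myc libraries in which Trim33 mRNA was higher under the Trim33-KO1 label than under the Trim33-WT label. Of other genes that separate the lines, all picked after their values were seen, some stood the other way round with Myc and some kept their order. Afp was at 0.798 and 0.920 CPM in Trim33-KO1 Ctrl and 8.13 and 8.56 in Trim33-KO2 Ctrl, but at 2.53 and 3.55 in the libraries labelled Trim33-KO1 Myc and 0.221 and 0.297 in those labelled Trim33-KO2 Myc. Zfp57 was at 42.8 and 43.0 CPM in Trim33-KO1 Ctrl and 82.3 and 72.0 in Trim33-KO2 Ctrl, but at 85.9 and 73.2 and at 52.0 and 51.3 with Myc. Atf7ip was at 48.0 and 50.6 CPM and at 84.7 and 82.6 with the Ctrl vector, but at 65.6 and 79.9 and at 53.6 and 50.7 with Myc. Uhrf1 and Dnmt1 kept their order. Uhrf1 was at 159.8 and 163.2 CPM and at 218 and 209.6 with the Ctrl vector, and at 147.3 and 158.9 and at 195.5 and 175.8 with Myc. For Dnmt1 the values were 276.1 and 278.6 CPM and 320.8 and 320.4 with the Ctrl vector, and 275.9 and 286.6 and 318.5 and 305.4 with Myc. Whether the labels of the lines were exchanged among the Myc libraries was not tested, and the Myc effects and interactions within a line hold only for the labels as given.

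HU moved Trim24 and neither of the other members past the threshold. In Trim33-WT, Trim24 went from 44.5 and 42.1 CPM to 78.9 and 84.8 CPM, a rise of 0.92 on the log2 scale (SE 0.163, edgeR adjusted p = 2.28e-05), or 1.89-fold, with 9.83% of genes called. In Trim33-KO it went from 115 and 104 CPM to 163 and 142 CPM, a rise of 0.48 (SE 0.141, edgeR adjusted p = 0.0243), or 1.39-fold, with 6.45% of genes called. The second call was lost with DESeq2 (adjusted p = 0.094) and without Trim33-KO HU replicate 1 (0.37, adjusted p = 0.342) or untreated Trim33-KO replicate 2 (0.39, adjusted p = 0.195). Trim24 in untreated Trim33-KO lay above Trim24 in HU-treated Trim33-WT, and the highest libraries were those of Trim33-KO after HU. The interaction of HU and knockout was -0.44 (SE 0.216, unadjusted p = 0.0448, edgeR adjusted p = 0.91), so that a smaller HU effect in the knockout was not shown, and 0.0714% of genes were called for that interaction. For Trim28 the HU effects were -0.05 (95% interval -0.28 to 0.18) in Trim33-WT and 0.13 (95% interval -0.10 to 0.35) in Trim33-KO. For Trim33 they were 0.09 (95% interval -0.19 to 0.37) and 0.13 (95% interval -0.21 to 0.47).

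Among genes of the silencing machinery around Trim28, 28 of 30 listed genes were counted in each experiment. In Trim33-KO1 11 were called higher and 5 lower, in Trim33-KO2 14 higher and 2 lower, and in the untreated knockout of the HU experiment 1 higher and 1 lower. These are 39.3% and 17.9%, 50% and 7.14%, and 3.57% and 3.57% of the list, beside 25.5% and 26.7%, 23.3% and 26.6%, and 3.07% and 2.52% of all genes called higher and lower. Their median log2 fold changes were 0.08, 0.31 and 0.01, against -0.0036, -0.0112 and -0.0001 over all genes tested. Uhrf1, which guides maintenance of DNA methylation, was at 59.6 and 61.1 CPM in Trim33-WT Ctrl, 160 and 163 CPM in Trim33-KO1 Ctrl and 218 and 210 CPM in Trim33-KO2 Ctrl, and rose by 1.42 and 1.82 on the log2 scale. Dnmt1, the maintenance DNA methyltransferase, rose by 0.89 and 1.10. The HP1 genes Cbx1, Cbx3 and Cbx5, whose products Trim28 binds, rose by 0.24, 0.55 and 0.50 in Trim33-KO1 and by 0.30, 0.59 and 0.77 in Trim33-KO2. The call of Cbx1 in Trim33-KO1 was lost without any 1 of the 4 libraries compared (0.21 to 0.28) and with DESeq2.

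Chd4, the NuRD remodeller, rose by 0.47 and 0.57 in the lines, and Hdac1, a histone deacetylase of NuRD, by 0.26 and 0.42. Mbd3, another NuRD subunit, rose by 0.79 in Trim33-KO1 and by 0.51 in Trim33-KO2. Setdb1, the H3K9 methyltransferase that Trim28 recruits, rose by 0.52 in Trim33-KO2 (edgeR adjusted p = 3.33e-06), and had a log2 difference of 0.10 in Trim33-KO1 (edgeR adjusted p = 0.194). Tasor, a subunit of the HUSH silencing complex, fell by 0.64 and 0.63. Atf7ip, the partner of Setdb1, fell by 0.71 in Trim33-KO1. Mta2 of NuRD fell by 0.17 in Trim33-KO1 (edgeR adjusted p = 0.00867) and by 0.25 in Trim33-KO2. In untreated cells of the HU experiment the called genes were Zfp57, a KRAB zinc finger protein that brings Trim28 to imprinted regions, with a rise of 0.81, and Mta1 of NuRD, with a fall of 0.57. The call of Zfp57 was lost without any 1 of the 4 libraries compared (0.66 to 0.96) and with DESeq2, and that of Mta1 without Trim33-KO replicate 1 or Trim33-WT replicate 2 (both -0.53). Zfp57 fell by 0.86 in Trim33-KO1 and had a log2 difference of -0.0135 in Trim33-KO2 (edgeR adjusted p = 0.897), so that its other direction in the Myc experiment rests on 1 line, and the difference between experiments was not tested. None of the genes Setdb1, Cbx1, Cbx3, Cbx5, Chd4 and Hdac1 passed in untreated cells.

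Of 22 listed partners of Trim33, in the Smad pathway and in transcription elongation, 20 were counted. In Trim33-KO1 8 were called higher and 4 lower, and in Trim33-KO2 8 higher and 3 lower. These are 40% and 20%, and 40% and 15% of the list, beside 25.5% and 26.7%, and 23.3% and 26.6% of all genes. In the untreated knockout edgeR called 0, with 2 genes at an unadjusted p below 0.05, and DESeq2 called 0, where 3.07% and 2.52% of all genes were called higher and lower. Smad4, the substrate of Trim33, had log2 differences of -0.09, 0.03 and -0.27 in Trim33-KO1, Trim33-KO2 and untreated Trim33-KO, and passed in none. Smad2, which binds Trim33, rose by 0.37 and 0.54 in the lines and had a difference of 0.33 in the HU experiment that did not pass. The inhibitory Smad6 rose by 0.89 and 0.93 in the lines, and the inhibitory Smad7 by 0.59 and 0.54. Their differences in untreated Trim33-KO, 0.01 and 0.57, did not pass. Skil, a Smad corepressor, fell by 0.29 and 0.34 in the lines. Each of these calls of Skil was lost without Trim33-WT Ctrl replicate 2 or replicate 1 of the line (-0.32 to -0.22). In untreated Trim33-KO the difference of Skil was 0.11 and did not pass.

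Hexim1, the inhibitor of the elongation kinase P-TEFb, rose from 38.9 and 37.0 CPM in Trim33-WT Ctrl to 94.5 and 90.1 CPM in Trim33-KO1 and to 84.5 and 83.7 CPM in Trim33-KO2, by 1.28 and 1.15 on the log2 scale. The P-TEFb subunits Cdk9 and Ccnt2 fell by 0.23 and 0.34 in Trim33-KO1 and by 0.32 and 0.33 in Trim33-KO2, calls that were lost for both genes with DESeq2 in Trim33-KO1 and for Ccnt2 in Trim33-KO2. Supt16, a subunit of the histone chaperone FACT, rose by 0.45 in Trim33-KO1 and by 0.57 in Trim33-KO2. Hexim1, Cdk9, Ccnt2 and Supt16 did not pass in untreated Trim33-KO, with log2 differences of -0.04, 0.33, 0.40 and -0.06. Ctnnb1, the β-catenin gene, had log2 differences of -0.08, 0.10 and 0.04, E2f4, a repressive E2F factor, of -0.07, -0.06 and 0.03, and Recql, a DNA helicase, of 0.29, 0.33 and -0.32. None of these genes passed in any of the 3 comparisons with all libraries in the fit. In Trim33-KO2, Recql passed with the compared groups alone (0.35), the Ctrl libraries alone (0.35) and library totals alone (0.42), and Ctnnb1 with the Ctrl libraries alone (0.11).

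Of 20 listed genes of retinoid signaling and p53, the setting of Trim24, 12 were counted with the vectors and 13 in the HU libraries. In Trim33-KO1 5 were called higher and 4 lower, in Trim33-KO2 3 higher and 4 lower, and in untreated Trim33-KO 1 higher. These are 41.7% and 33.3%, 25% and 33.3%, and 7.69% and 0% of the list, beside 25.5% and 26.7%, 23.3% and 26.6%, and 3.07% and 2.52% of all genes. Rara and Rxra, the retinoid receptors that Trim24 binds, rose by 0.44 and 0.31 in Trim33-KO1 and by 0.39 and 0.47 in Trim33-KO2, and did not pass in untreated cells, at 0.55 and -0.06. Aldh1a3, which makes retinoic acid, was at 147 and 154 CPM in Trim33-WT Ctrl, 42.1 and 40.0 CPM in Trim33-KO1 Ctrl and 16.0 and 19.1 CPM in Trim33-KO2 Ctrl, and fell by 1.87 and 3.10 on the log2 scale. Dhrs3, a retinal reductase, fell by 1.08 and 1.31, and Rdh10, a retinol dehydrogenase, by 0.87 and 0.40. Tgm2, a gene induced by retinoic acid, rose by 0.35 in Trim33-KO1. Aldh1a3, Dhrs3, Rdh10 and Tgm2 did not pass in untreated Trim33-KO, with log2 differences of 0.54, 0.29, -0.31 and -0.65. Trp53, whose protein Trim24 ubiquitinates, rose by 0.59 in untreated Trim33-KO (SE 0.118, edgeR adjusted p = 0.000241) and had log2 differences of 0.10 and 0.17 in the lines, which did not pass. The second passed under 5 alternatives (0.17 to 0.25, adjusted p from 0.000166 to 0.00958).

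The other genes of the TRIM class were counted in the same way. Of 33 counted in the Myc experiment, 9 were called higher and 9 lower in Trim33-KO1, and 5 higher and 8 lower in Trim33-KO2. These shares, 27.3% and 27.3% and then 15.2% and 24.2%, are near those of all genes, 25.5% and 26.7% and then 23.3% and 26.6%, or below them. Of 26 counted in the HU experiment edgeR called 0, with 3 at an unadjusted p below 0.05, and DESeq2 called 0. Trim35, Trim26 and Trim44 fell by 1.39, 1.12 and 1.10 in Trim33-KO1 and by 1.19, 1.01 and 0.93 in Trim33-KO2. Trim7, Trim65 and Trim59 rose by 1.49, 0.78 and 0.54 in Trim33-KO1 and by 1.44, 1.03 and 0.83 in Trim33-KO2. Trim66, the remaining TIF1-type gene, averaged 2.37 and 8.79 CPM in the experiments and did not pass, with log2 differences of 0.15, 0.49 and -0.25. None of the genes of these 4 lists was called the same way in all 3 comparisons, where 0.556% of all genes were called higher and 0.475% lower.

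**Figure D4:**
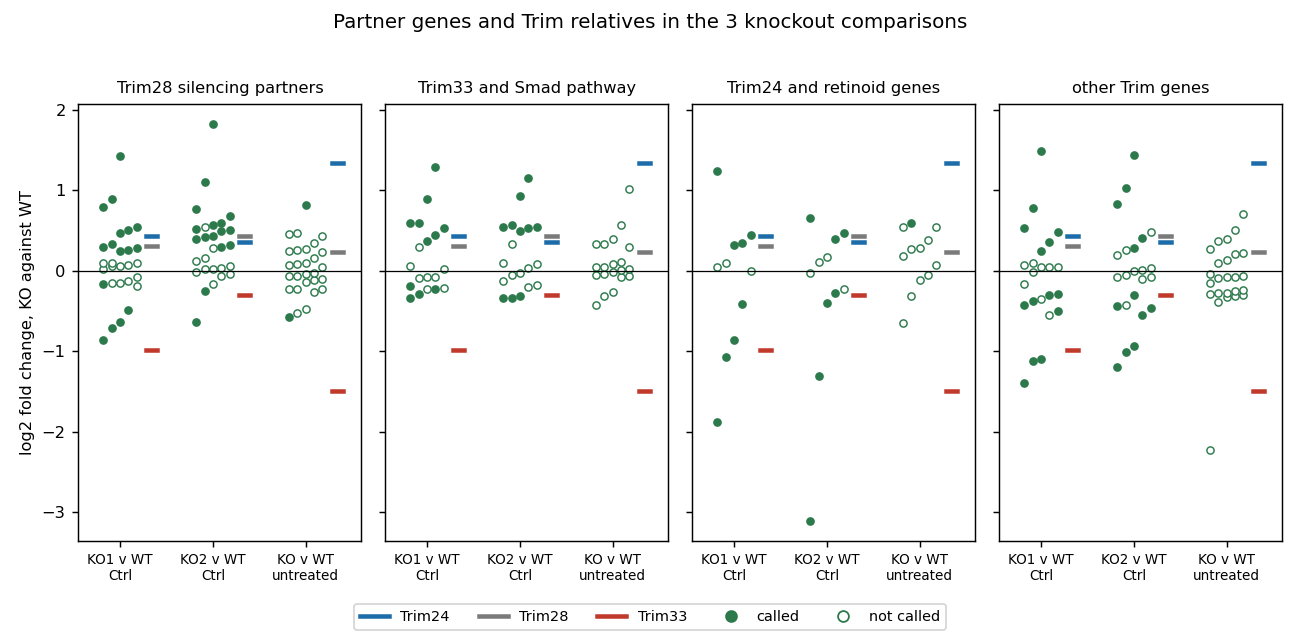
Log2 fold changes (vertical axis) of the listed genes with a mean of at least 5 CPM in the 3 comparisons of knockout with Trim33-WT (horizontal axis), filled where called; short lines mark Trim24, Trim28 and Trim33. Calls are many in the Myc experiment and 3 in all in the HU experiment, where Trim24 lies above all listed genes drawn and Trim33 below all but Trim45, which is named after its value was seen and was not called.

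The genes whose levels ran most like each member were sought over the 12 libraries of the Myc experiment, which form 6 groups of like libraries, among 10438 genes with a mean of at least 5 CPM. For Trim24 they were Wdr36, Map6, Ercc6l2, Shank3 and Gfod1, with Pearson correlations of log2 CPM from 0.970 to 0.980. For Trim28 they included Aaas, Pola2, Srsf6 and Nxn, from 0.973 to 0.985, and for Trim33 Diaph2, Slc23a2, Mapk9, Rps6ka3 and Platr25, from 0.956 to 0.980. Over the 8 libraries of the HU experiment the same correlations were -0.79 to 0.85 for Trim24, -0.42 to 0.44 for Trim28 and -0.79 to 0.67 for Trim33. Of these genes, Map6 ran most like its member in the HU experiment, and Ercc6l2 and Diaph2 ran against theirs. The correlations in the Myc experiment include the libraries labelled with the Myc vector and do not use the labels.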

How the data were processed

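RNA-seq libraries of p19/Nras cells were prepared, per the labels, from TRIzol-extracted RNA with the NEBNext Ultra II kit, whereas the study's methods name RNeasy and NEBNext Ultra. The authors aligned the reads with STAR 2.5.4 to mm9 and deposited counts, whole numbers of reads per gene, for 13107 genes (298 without a symbol) of the Myc experiment and 11210 (168) of the HU experiment. The counting tool, the annotation and any low-count filter are not given in the sources used here. The first table is named as normalized, but its values are whole numbers with unequal totals, and they were treated as counts. The authors' own comparisons (fold changes and p-values made with edgeR 3.26.8) were not used here. Samples were grouped by their labels, and columns were matched to samples by title.

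Each experiment was fitted alone with all its libraries, TMM scaling and 1 coefficient per group in edgeR 4.0.16 (limma 3.58.1, R 4.3.3), with quasi-likelihood tests adjusted by Benjamini-Hochberg over all genes tested. The filter filterByExpr removed 0 genes. The common biological coefficient of variation was 0.0498 and 0.102. The smallest p that an exact permutation test of 2 against 2 libraries allows is 0.333, and the edgeR tests borrow the spread from all genes. Depth was 14753177 to 17949430 and 2315327 to 3082202 counts per library. Intervals were wider in the HU experiment, where depth was lower and the coefficient of variation higher. The fitting was tested on simulated data. In the HU experiment 71.9% of values from 1 to 50 were even, against 48.4% in the Myc experiment, and halved counts were tried. Exon lengths came from the GENCODE annotation of mm9, and 3 gene lists of partners were written by hand. Named genes were a fixed set of partners and, per list and knockout comparison, the 3 largest called rises and falls with a mean of at least 5 CPM and groups that do not overlap. For each member the 5 genes most alike were sought. Of the named and alike genes, 2 are not reported here. Alternatives were the compared groups or Ctrl libraries alone, a replicate block, 5 CPM in every library, no filter, RLE factors, library totals, DESeq2 1.42.0, halved counts and each library left out. The members and lists were chosen with earlier results of these data known.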

Additional observations from a re-analysis of the deposited data

Results flagged for a closer look

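In 4 results a test of the difference itself was past the threshold between lines. Trim33 mRNA differed between the knockout lines with the Ctrl vector, higher by 0.68 on the log2 scale in Trim33-KO2 than in Trim33-KO1, with 18.3% of all genes called in that comparison. The effect of the Myc vector on Trim33 differed between the libraries labelled Trim33-KO1 and Trim33-WT, with an interaction of 1.39, in all fits without 1 library between 1.28 and 1.52. The effect of the Myc vector on Trim28 differed from that in the libraries labelled Trim33-WT, with interactions of -0.27 for Trim33-KO1 and -0.48 for Trim33-KO2. With the Myc vector, Trim33 mRNA was higher in the libraries labelled Trim33-KO1 than in those labelled Trim33-WT, the other way round from the Ctrl vector. Whether this bears on the Trim28 interactions was not tested.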

How the results depend on the processing

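Of 339 values of the members under alternatives other than left-out libraries, 330 kept their direction and their side of the threshold, 7 lost their call, 2 gained one and 0 changed sign. With the compared groups alone, the Trim28 difference between Trim33-KO2 and Trim33-KO1 (0.14, and 0.15 with the Ctrl libraries alone) passed, whereas Trim33 in the libraries labelled Trim33-KO1 Myc against Trim33-WT Myc (0.42) and the Trim28 interaction of Myc and Trim33-KO1 (-0.27) did not. With library totals alone, Trim33 in Trim33-KO2 (-0.22) and Trim28 in Trim33-KO after HU (0.36) lost their calls, and with DESeq2 so did Trim28 in Trim33-KO after HU (0.41), Trim28 with Myc in Trim33-KO1 (0.18) and Trim24 with HU in Trim33-KO (0.47). The cause of these losses was not tested. Halved counts changed no call of a member.

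Without 1 library of the compared groups, 192 of 216 values kept direction and call, 17 lost the call, 1 gained one and 6 changed sign, all of these near 0 and not called. The signs changed for Trim28 with Myc in Trim33-KO2 (-0.073 to 0.0092), Trim28 with HU in Trim33-WT (-0.17 to 0.053), Trim33 with HU in Trim33-WT (-0.0034 to 0.16) and the Trim33 interactions of Myc and Trim33-KO2 (-0.0093 to 0.23) and of HU and knockout (-0.066 to 0.17). Calls were lost or gained for Trim24 with HU in Trim33-KO (0.37 to 0.57), Trim28 in Trim33-KO after HU (0.37 to 0.45), Trim28 with Myc in Trim33-KO1 (0.18 to 0.20), the Trim28 interaction of Myc and Trim33-KO1 (-0.30 to -0.24), Trim33 in Trim33-KO2 with the Ctrl vector (-0.34 to -0.27) and with the Myc vector (-0.31 to -0.072). The last gained its call. Where 1 library of a group was left, it was assumed to vary like the other groups.

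The numbers of replicates were not taken to pair the libraries. Replicate differences correlated between groups at -0.356 to 0.485 over 15 pairs of groups in the Myc experiment (4 above 0.1). In the HU experiment they correlated at -0.0241 to 0.0875 over 6 pairs. The highest value was that of the libraries labelled Trim33-WT Myc with those labelled Trim33-KO1 Myc. Whether libraries of the same replicate number shared a batch was not tested. With the replicate block, Trim24 was 0.43 and 0.36 higher in Trim33-KO1 and Trim33-KO2 and 1.34 higher in untreated Trim33-KO, no member's call changed, and no number of called genes moved by over 1.5 times.

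The numbers of called genes moved by over 1.5 times from 2398 between Trim33-KO2 and Trim33-KO1 to 4029 and 3818 with the compared groups or Ctrl libraries alone, 1585 at 5 CPM in every library and 1383 to 1475 without 1 library. With the Myc vector they moved from 3291 to 1541 for Trim33-KO1 and from 4614 to 2775 for Trim33-KO2 with the compared groups alone, and to 1906 without the library labelled Trim33-KO1 Myc replicate 2 for the former. For Trim33-KO after HU the number moved from 677 to 1099 with the compared groups alone, 402 with DESeq2 and 248 to 296 without 1 library. In untreated Trim33-KO it moved from 626 to 396 with DESeq2 and 337 without Trim33-KO replicate 2. With HU it moved from 1102 to 727 in Trim33-WT and from 723 to 456 in Trim33-KO with DESeq2, and without 1 library to 553 and 389 at the lowest. For the interaction of HU and knockout it moved from 8 to 5 with DESeq2 and from 0 to 20 without 1 library, where edgeR gave 464 genes at an unadjusted p below 0.05 in the fit with the fewest.

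Of 1074 values of the named partners and relatives, 1005 kept direction and call, 47 lost the call, 9 gained one and 13 changed sign, none of them called. With library totals alone E2f4 was 0.028 in Trim33-KO2 and -0.0158 in untreated Trim33-KO, and Ctnnb1 -0.0005 there. Without 1 library, untreated differences ran from -0.069 to 0.22 for Cbx3, -0.12 to 0.040 for Chd4, -0.0184 to 0.10 for Ctnnb1, -0.080 to 0.13 for E2f4, -0.12 to 0.26 for Hdac1 and -0.61 to 0.17 for Trim66, and Trim66 in Trim33-KO1 from -0.0233 to 0.30. Lost calls without 1 library included Hdac1, Rxra, Trim65, Ccnt2 and Cdk9 in Trim33-KO1 and Rdh10, Ccnt2 and Cdk9 in Trim33-KO2. Calls gained were those of Trp53, Recql and Ctnnb1 in Trim33-KO2. Of 144 numbers of called list genes, 134 stayed within 1.5 times. Under library totals the genes most like each member were the same but for Ppm1f in place of Gfod1 for Trim24.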
